A study of Mus musculus with 6 samples.

Results

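The D-type and E-type cyclins (Ccnd1, Ccnd2, Ccnd3, Ccne1 and Ccne2), the kinases they activate (Cdk4, Cdk6 and Cdk2) and the phosphatase Cdc25a drive cells out of G1 and into DNA replication. These 9 genes were followed in a mouse erythroid line after depletion of Setd8 (SetD8), the enzyme that places 1 methyl group on lysine 20 of histone H4. They were chosen by gene name: every non-control probe whose name in the array files was one of the 9 was taken, which gave 13 probes for 9 genes, of 55681 probes with 34844 names on the array. Ccnd3 and Ccne1 each had 2 probes, Cdk4 had 3, and the other 6 genes had 1 each.

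SetD8 siRNA and control siRNA treatments of G1E-ER-GATA-1 cells were compared, with 3 arrays each, and the control siRNA was non-targeting. All cells lacked their own Gata1 and carried a GATA-1 protein joined to the hormone-binding part of an estrogen receptor, and β-estradiol switches it on and starts maturation. All were transfected at 0 h and again at 24 h, were given β-estradiol at 24 h, and were harvested at 48 h. Each array carried Cy3-labelled cRNA in 1 colour. The cells are 1 line, the labels name 1 SetD8-specific siRNA treatment, and separate cultures are not stated for the replicates of either group. The p-values therefore cover the spread among these arrays alone, and that spread may be technical. Of the erythroid markers, 10 of 10 were well above background on all 6 arrays. They include Gata1, and whether its probe read the introduced GATA-1 was not tested. Markers of other lineages also passed the filter in part, some on dim probes and some, such as Pf4, on bright ones. These were 4 of 4 for megakaryocytes (3 on all arrays) and 4 of 6 for granulocytes and macrophages (4 on all arrays). For lymphoid cells 3 of 4 passed (1 on all arrays), for stroma and endothelium 3 of 5 (1 on all arrays) and for mast cells 0 of 4.

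D-type cyclins bind Cdk4 and Cdk6 in response to growth signals and start the phosphorylation of the retinoblastoma protein, which holds back E2F transcription factors. E2F then activates the E-type cyclin genes and Cdc25a, among others. Cyclin E with Cdk2 completes that phosphorylation and starts replication, and Cdc25a removes the inhibitory phosphates from Cdk2. In erythroid cells GATA-1 slows this machinery during the last divisions, and cyclin D3 is known to set how many of these divisions a red cell precursor makes. Each array read RNA from a whole culture, so fewer cells in one phase of the cycle and less RNA per cell cannot be told apart.

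The probes whose values are followed most closely are shown here because the 2 Ccne1 probes and the Ccnd2 and Cdk4 probes read different places in their transcripts. Coordinates are on mm9 as the files give them, positions count from the first base of the transcript, and the exon or untranslated region behind each probe was not determined here. The first 3 probes are printed whole, and the last 3, near transcript ends, by their first 30 bases.
Ccne1 probe 1 (position 741, chr7:38885574-38885633, minus strand): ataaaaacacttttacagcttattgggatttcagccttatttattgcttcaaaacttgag
Ccnd2 probe (position 609, chr6:127098696-127098755, minus strand): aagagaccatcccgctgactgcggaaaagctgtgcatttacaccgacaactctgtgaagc
Cdk4 probe 1 (position 861, chr10:126503162-126503221, plus strand): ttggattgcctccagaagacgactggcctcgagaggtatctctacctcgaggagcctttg
Ccne1 probe 2 (position 1874, chr7:38882937-38882960, minus strand): gcatgtcctgccttcatgaactcttatttt
Ccnd3 probe 2 (position 2059, chr17:47736579-47736638, plus strand): caaggtttgggctggtggcccatttctatc
Cdc25a probe (position 3563, chr9:109796331-109796390, plus strand): gtaccagcatagctagcattgttaacgcac
The other Ccnd3 probe, probe 1, lay at position 1608 of another Ccnd3 transcript (chr17:47736267-47736326), and the other Cdk4 probes at positions 1181 (probe 2) and 1286 (probe 3). The mm9 span that the files give for Ccne1 probe 2 covers 24 bases although the probe has 60.

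The arrays differed in how much they detected. Among 59305 non-control spots, the fraction well above background was 60.3% to 68.6% on the SetD8 siRNA arrays and 40.2% to 82.5% on the control siRNA arrays, with 0 saturated spots on each array. Control array 2 had the lowest share and stood alone on its slide and scan day, and control array 3 had the highest share. SetD8 arrays 1 and 2 shared slide 1 with control array 1, and SetD8 array 3 shared slide 3 with control array 3. Results are therefore given on 2 scales. The percentile scale is log2 of the processed signal minus the 75th percentile of its array. The quantile scale is log2 of the signal following normexp background correction and quantile normalization between arrays, which gives all arrays the same distribution and left a median residual SD of 0.24 per probe, against 0.51 on the percentile scale. On the quantile scale Setd8 itself fell 4.23-fold on its brighter probe, a log2 difference of −2.08 ± 0.16 (SE) with a limma adjusted p of 0.0172, and its dimmer probe gave −1.13 with an adjusted p of 0.146. The percentile scale gave Setd8 −2.23 ± 0.48 (SE) with an adjusted p of 0.917, and the groups did not overlap (exact permutation p = 0.1, two-sided, the smallest that 3 arrays against 3 allow). Blocking by slide took the adjusted p of Setd8 on the quantile scale to 0.0753, and leaving out control array 1 or any 1 of the SetD8 arrays took it to between 0.105 and 0.176. Blocking by replicate number took it to 0.299.

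Some markers of other lineages were higher with SetD8 siRNA without passing the test. The macrophage receptor gene Csf1r was 1.96-fold higher on the quantile scale (adjusted p = 0.395) and the megakaryocyte integrin gene Itga2b 1.39-fold higher (adjusted p = 0.497), both without overlap between the groups on either scale. Without overlap on the quantile scale alone were the collagen gene Col3a1, 1.80-fold higher (adjusted p = 0.621), and the neutrophil elastase gene Elane, 1.20-fold higher (adjusted p = 0.710). These 4 were picked after their values were seen, and their part in the results that follow was not tested. Of the 10 erythroid markers, 1 was higher and 2 lower without overlap on the quantile scale, against 9.08% and 8.71% of all probes. Hbb-bh1 was 5.70-fold higher (adjusted p = 0.0172, and 0.474 on the percentile scale). Slc4a1 was 2.31-fold lower (adjusted p = 0.303) and Tfrc 1.19-fold lower (adjusted p = 0.695). Hbb-b1 was 2.26-fold higher with overlap (adjusted p = 0.455). The part of these erythroid differences was not tested either.

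Of the 9 genes, 6 were measured: Ccnd2, Ccnd3, Ccne1, Cdk2, Cdk4 and Cdc25a. Their 10 probes were well above background on all 6 arrays, so none of them entered through 1 group alone. The plot of processed signals shows every probe on every array. The other 3 genes, Ccnd1, Ccne2 and Cdk6, were not well above background on all arrays of either group and gave no fold.

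**Figure D1:**
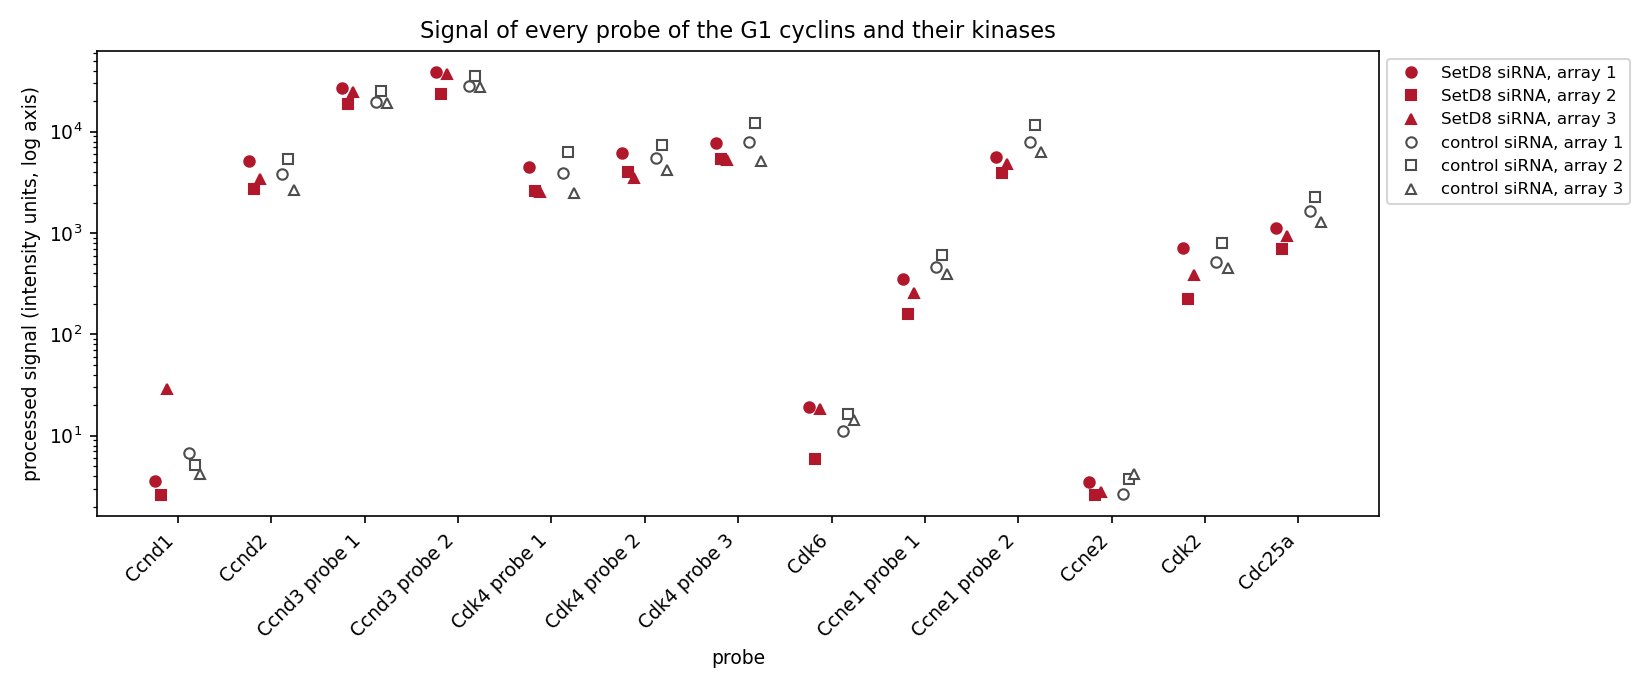
Processed signal (intensity units, log axis) of all 13 probes, 1 point per array, with SetD8 siRNA filled and to the left and control siRNA open and to the right. The Ccnd3 probes lie between 18883 and 38914 on all arrays, whereas the Ccnd1, Ccne2 and Cdk6 probes stay under 30 and the brightness of different probes is not a comparison of transcript levels.

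No probe of the G1 cyclins and kinases passed an adjusted p of 0.05 on either scale. Scaled by percentile, limma called 0 of 10 of these probes, against a background of 0% of the 30987 probes tested, with adjusted p of 0.917 to 0.945. At an unadjusted p of 0.05 it took 0 of the 10, against 2.86% of all probes. On the quantile scale it again called 0 of 10, against 0.316% of all probes, with adjusted p of 0.133 to 0.971. With that test kept to probes well above background on all arrays it called 0 of 10, against 1.69%, and the lowest adjusted p was 0.0587, for Ccnd3 probe 2. Blocking by slide on the percentile scale also called 0 of 10, against 0.549%. On the quantile scale 5 of 10 had an unadjusted p under 0.05, against 10.4% of all probes, namely the 2 Ccnd3 probes (higher, against 5.53% of all probes) and the 2 Ccne1 probes with the Cdc25a probe (lower, against 4.89%). The same 5 were the probes whose groups did not overlap on that scale, against 17.8% of all probes (9.08% higher and 8.71% lower). They stand for 3 genes, because probes of 1 gene read the same RNA. The median log2 difference of the 10 probes was −0.10, against 0.01 for all probes, on the quantile scale, and −0.17 against 0.10 on the percentile scale. All probes include dim ones, whereas the 10 were well above background on all arrays. Over the 21052 probes that were so, the median was −0.03 on the quantile scale and −0.09 on the percentile scale. Of these, 3350 had an unadjusted p under 0.05 on the quantile scale.

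**Figure D2:**
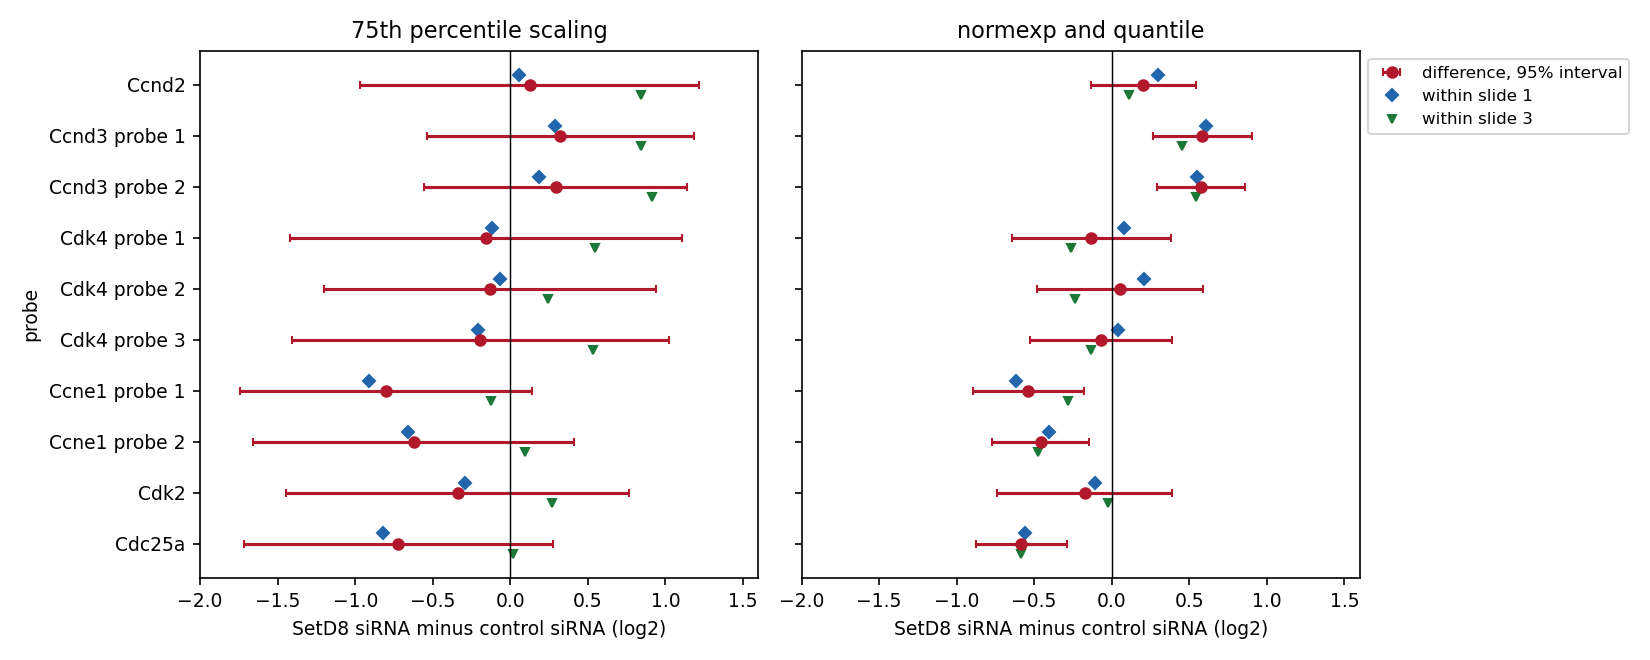
SetD8 siRNA minus control siRNA (log2) for the 10 measured probes on each scale. Circles with bars are the limma difference with its 95% interval, diamonds the difference within slide 1 and triangles that within slide 3. On the quantile scale the intervals of Ccnd3, Ccne1 and Cdc25a lie off 0, and on the percentile scale every interval crosses 0.

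Cyclin D3 gave the largest positive differences on both scales, although scaling by each array's median, which put the median of all probes at −0.41, turned them to −0.19 (probe 1) and −0.22 (probe 2). Ccnd3 probe 2 read 15.29, 15.26 and 15.33 on SetD8 arrays 1, 2 and 3, against 14.73, 14.64 and 14.79 on control arrays 1, 2 and 3 (log2 signal on the quantile scale). Every SetD8 array lay above every control array, by more than the spread within either group (SD 0.036 with SetD8 siRNA and 0.075 with control siRNA, n = 3 each). The difference was 0.58 ± 0.12 (SE), 1.49-fold higher, with a 95% interval of 0.30 to 0.86 and an adjusted p of 0.133. Ccnd3 probe 1 gave nearly the same value, 0.58 ± 0.13 (SE), 1.50-fold higher, with an adjusted p of 0.167. Within slide 1 the differences were 0.61 for probe 1 and 0.55 for probe 2, and within slide 3 they were 0.45 and 0.54. On the percentile scale Ccnd3 probe 2 read 7.38, 7.48 and 7.65 on SetD8 arrays 1, 2 and 3, against 7.24, 7.65 and 6.73 on control arrays 1, 2 and 3. There the groups overlapped, because control array 2 was as high as the highest SetD8 array, and the difference was 0.29 ± 0.35 (SE). Without control array 2 that difference was 0.51, and without control array 3 it was 0.05.

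Over the 6 arrays, the genes whose signal followed that of Ccnd3 probe 2 most closely on the quantile scale were Myo1g, an unconventional myosin (Pearson r = 0.9983), Stk25, a protein kinase (r = 0.9977), and Oas3, an interferon-induced enzyme that makes oligoadenylates (r = 0.9975), among 12799 genes compared. These correlations rest on 6 arrays in 2 groups and share each array's normalization, so they are a description. The other Ccnd3 probe had r = 0.968 with probe 2.

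Cyclin D2, the other D-type cyclin measured, differed less. Ccnd2 read 12.03, 11.87 and 11.68 on SetD8 arrays 1, 2 and 3, against 11.66, 11.75 and 11.57 on control arrays 1, 2 and 3, on the quantile scale. The groups overlapped, and the difference was 0.20 ± 0.14 (SE) with a 95% interval of −0.13 to 0.54 and an adjusted p of 0.738. On the percentile scale it was 0.12 ± 0.46 (SE), and scaling by the median gave −0.39. Whether Ccnd2 and Ccnd3 differed in their response was tested on their ratio within arrays, in which a scaling factor per array cancels but quantile normalization does not. The log2 ratio of Ccnd2 to Ccnd3 was lower with SetD8 siRNA by 0.37 on the quantile scale, with an exact permutation p of 0.1 (0.2 after adjustment over the 2 pairs tested), and the groups did not overlap. On the processed signal the difference in this ratio was −0.17, with an exact permutation p of 0.5 (0.9 adjusted). Of the 7 pairs planned, the other 5 could not be tested because 1 gene of each was not measured.

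Ccnd1 stayed near background. Its processed signals were 3.58, 2.63 and 28.7 on SetD8 arrays 1, 2 and 3, against 6.79, 5.16 and 4.20 on control arrays 1, 2 and 3. Only SetD8 array 3 was well above background (1 of 3 SetD8 arrays and 0 of 3 control arrays). The probe, at position 3370 of the transcript (chr7:152116202-152116261, mm9), gave no usable difference.

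Of the kinases that partner the D-type cyclins, Cdk4 was measured by 3 probes and showed no difference beyond the spread between arrays. On the quantile scale its probes 1, 2 and 3 gave −0.13 ± 0.22, 0.05 ± 0.22 and −0.07 ± 0.19 (SE), with 95% intervals that reached from −0.64 at the lowest to 0.59 at the highest. Adjusted p was 0.906 to 0.971. Cdk4 probe 3 read 12.66, 12.93 and 12.36 on SetD8 arrays 1, 2 and 3, against 12.76, 12.91 and 12.50 on control arrays 1, 2 and 3, and the groups overlapped. By percentile the probes gave −0.15 ± 0.53, −0.13 ± 0.45 and −0.19 ± 0.51 (SE), and all 3 turned positive with slide as a block (0.17, 0.06 and 0.11). Cdk6 was not well above background on any array (0 of 6), with processed signals of 19.3, 5.87 and 18.6 on SetD8 arrays 1, 2 and 3, against 11.1, 16.5 and 14.4 on control arrays 1, 2 and 3.

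Cyclin E1, the regulatory partner of Cdk2, was lower with SetD8 siRNA on both probes. On the percentile scale Ccne1 probe 1 read 0.58, 0.26 and 0.49 on SetD8 arrays 1, 2 and 3, against 1.33, 1.78 and 0.62 on control arrays 1, 2 and 3. It was the 1 probe of the 10 whose groups did not overlap on that scale, where 8.21% of all probes did not overlap and 3.44% were lower without overlap, and control array 3 lay just above the highest SetD8 array. This was a difference of −0.80 ± 0.39 (SE), a 1.74-fold lower signal, with an exact permutation p of 0.1 and a limma adjusted p of 0.917. Quantile-normalized, it read 8.51, 8.32 and 8.46 against 9.04, 9.13 and 8.75 in the same array order, a 1.45-fold lower signal (−0.54 ± 0.15, SE) whose adjusted p was 0.245. This probe is dim, with processed signals of 158 to 349 on the SetD8 arrays and 395 to 602 on the control arrays, and normexp with an offset makes differences of dim probes smaller.

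Ccne1 probe 2, further along the same transcript, read 12.20, 12.49 and 12.31 on SetD8 arrays 1, 2 and 3, against 12.75, 12.85 and 12.78 on control arrays 1, 2 and 3, on the quantile scale. All SetD8 arrays were below all control arrays. The signal was 1.37-fold lower, a log2 difference of −0.46 ± 0.13 (SE), and the 95% interval ran from −0.77 to −0.15 with an adjusted p of 0.257. Within slide 1 it was −0.40 and within slide 3 it was −0.47, while probe 1 gave −0.62 and −0.28. By percentile, probe 2 read 4.59, 4.90 and 4.72 with SetD8 siRNA, against 5.40, 6.05 and 4.62 with control siRNA, and the groups overlapped through control array 3. That difference was −0.62 ± 0.43 (SE). Within slide 1 it was −0.66 and within slide 3 it was 0.10, so the direction on this scale did not hold within slide 3. Without control array 2 it was −0.28, and without control array 3 it was −0.99.

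Ccne2, which encodes the other E-type cyclin, was not well above background on any array (0 of 6). Its processed signals were 3.50, 2.59 and 2.79 on SetD8 arrays 1, 2 and 3, against 2.64, 3.75 and 4.20 on control arrays 1, 2 and 3. The probe had a GC content of 15%, the lowest of the 13, and the part of base composition in its low signal was not tested.

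Cdk2, the kinase that cyclin E activates, showed no difference beyond the spread between arrays. It read 9.46, 8.73 and 8.91 on SetD8 arrays 1, 2 and 3, against 9.20, 9.49 and 8.94 on control arrays 1, 2 and 3, on the quantile scale. SetD8 array 1 lay among the control values and the groups overlapped. The difference was −0.17 ± 0.24 (SE), with a 95% interval of −0.74 to 0.39 and an adjusted p of 0.884, and the percentile scale gave −0.34 ± 0.46 (SE). The within-array log2 ratio of Cdk2 to Cdk4 differed by −0.14 on the processed signal and by −0.10 on the quantile scale, each with an exact permutation p of 0.9.

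Cdc25a, the phosphatase that activates Cdk2, gave the largest negative difference on the quantile scale. It read 9.93, 10.11 and 9.94 on SetD8 arrays 1, 2 and 3, against 10.58, 10.63 and 10.52 on control arrays 1, 2 and 3. The 2 groups were well apart, with an SD of 0.099 among the SetD8 arrays and 0.053 among the control arrays (n = 3 each). The signal was 1.50-fold lower, a log2 difference of −0.58 ± 0.12 (SE), and the 95% interval ran from −0.88 to −0.29 with an adjusted p of 0.140. It was −0.56 within slide 1 and −0.58 within slide 3. By percentile, Cdc25a read 2.26, 2.39 and 2.35 with SetD8 siRNA, against 3.15, 3.69 and 2.33 with control siRNA. The SetD8 arrays lay close together and control array 3 lay among them, so the groups overlapped. The difference on that scale was −0.72 ± 0.42 (SE), with −0.82 within slide 1 and 0.02 within slide 3. It was −0.41 without control array 2 and −1.08 without control array 3.

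Ratios between genes within 1 array, on the processed signal, leave out any scaling factor of that array. The pairs that follow were chosen after the genes' values had been seen, some because the 2 differed in direction, so they carry no test and whether their groups overlap is a description only. On the processed signal the log2 ratio of Ccne1 probe 2 to Ccnd3 probe 2 was −2.79, −2.58 and −2.93 on SetD8 arrays 1, 2 and 3, against −1.84, −1.60 and −2.11 on control arrays 1, 2 and 3. All SetD8 arrays were lower, by 0.91 on average or 1.89-fold, and the difference was −0.84 within slide 1, −0.82 within slide 3 and −0.79 without control array 2. The ratio of Cdc25a to Ccnd3 was −5.12, −5.09 and −5.30, against −4.10, −3.97 and −4.40, a difference of −1.01 or 2.02-fold. Both ratios were lower on all SetD8 arrays than on all control arrays, and on the quantile scale they differed by −1.04 for Ccne1 and −1.16 for Cdc25a, again without overlap.

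The ratio of Ccne1 to Ccnd2 differed by −0.75, or 1.68-fold, without overlap, with −0.71 within slide 1 and −0.75 within slide 3. Against Cdk4 the Ccne1 ratio differed by −0.43 without overlap on the processed signal, and by −0.39 with overlap on the quantile scale. Against Cdk2, the kinase it activates, the Ccne1 ratio differed by −0.28 on either scale and the groups overlapped. Between Ccne1 and Cdc25a the ratio differed little on the processed signal, with 2.32, 2.51 and 2.37 on SetD8 arrays 1, 2 and 3, against 2.26, 2.36 and 2.29 on control arrays 1, 2 and 3, a difference of 0.10 with overlap. It differed by 0.13 without overlap on the quantile scale.

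**Figure D3:**
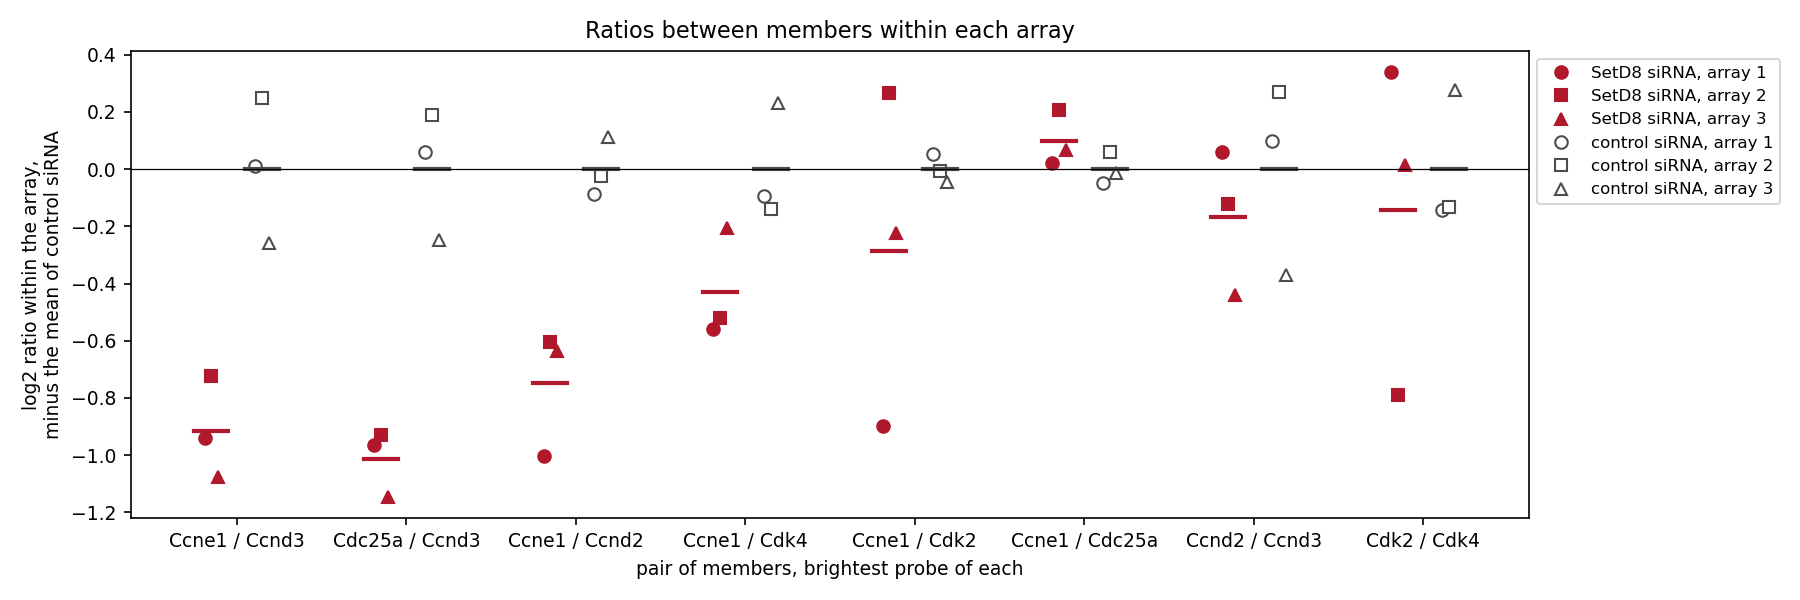
Within-array log2 ratios of pairs of genes on the processed signal, each minus the mean of that ratio over the control siRNA arrays, with SetD8 siRNA filled and to the left and control siRNA open and to the right. Points are arrays and horizontal bars are group means. The Ccne1 to Ccnd3, Cdc25a to Ccnd3 and Ccne1 to Ccnd2 ratios lie lower on all SetD8 arrays, by 0.91, 1.01 and 0.75 on average, while the Ccne1 to Cdk2, Ccne1 to Cdc25a, Ccnd2 to Ccnd3 and Cdk2 to Cdk4 ratios overlap between groups.

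Promoters are shown for Cdc25a and Ccne1, both lower without overlap on the quantile scale though neither passed the test, and for Cdk4, whose groups overlapped. RefSeq entries (GRCm38.p6, from 250 bases before to 50 after the gene start) were matched by symbol for 6 of the 9 genes, which gave 7 promoters because Ccnd3 had 2. Capitals mark matches to an E2F word or to the E-box CACGTG. The E2F words, searched on both strands, were TTTCCCGC, TTTCCCGG, TTTCGCGC, TTTCGCGG, TTTGCCGC, TTTGCCGG, TTTGGCGC and TTTGGCGG, and none shares letters with the E-box matches printed here.
Cdc25a (chr9:109875329-109875628, plus strand): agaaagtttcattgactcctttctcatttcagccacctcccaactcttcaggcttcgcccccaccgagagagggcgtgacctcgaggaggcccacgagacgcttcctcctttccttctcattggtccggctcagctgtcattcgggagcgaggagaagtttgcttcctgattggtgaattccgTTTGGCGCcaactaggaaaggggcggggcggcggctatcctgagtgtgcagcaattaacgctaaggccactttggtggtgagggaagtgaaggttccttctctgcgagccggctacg
Ccne1 (chr7:38107441-38107740, minus strand): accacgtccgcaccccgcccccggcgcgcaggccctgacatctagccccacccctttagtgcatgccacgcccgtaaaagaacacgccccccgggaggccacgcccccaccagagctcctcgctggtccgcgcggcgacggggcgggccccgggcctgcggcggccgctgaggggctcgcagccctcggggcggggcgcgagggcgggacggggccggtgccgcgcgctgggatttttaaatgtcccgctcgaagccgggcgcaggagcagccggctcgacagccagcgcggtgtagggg
Cdk4 (chr10:127063285-127063584, plus strand): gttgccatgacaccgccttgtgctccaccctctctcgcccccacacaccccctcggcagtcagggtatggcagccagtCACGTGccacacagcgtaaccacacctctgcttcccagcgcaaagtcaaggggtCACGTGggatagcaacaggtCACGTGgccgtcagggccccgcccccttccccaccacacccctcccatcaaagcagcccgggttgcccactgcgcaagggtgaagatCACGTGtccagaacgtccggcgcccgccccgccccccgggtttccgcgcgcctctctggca
The Cdc25a promoter held TTTGGCGC 67 bases before the gene start, and the Cdk2 promoter held TTTCCCGC on the opposite strand 140 bases before it. An E2F word stood in 4.51% of the 32851 promoters in the table. The Cdk4 promoter held CACGTG at 172, 118, 98 and 11 bases before the start and the Cdk6 promoter held it at 220, while 7.15% of all promoters held at least 1. The Ccne1 promoter and both Ccnd3 promoters matched neither. The words AGATAA or AGATAG and, of the same GATA motif, TGATAA or TGATAG stood in 29.8% of all promoters and in 0 of the 7. These are matches of letters in a window and not sites.

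The rest of the G1/S network was followed through 6 lists taken from textbook knowledge, with 1 probe per gene. Among the CDK inhibitors, 6 of 7 were measured and 1 rose on the quantile scale, where 0.316% of all probes were called. This was Cdkn1a, which encodes p21, an inhibitor of cyclin E-Cdk2. Cdkn1a read 13.12, 13.40 and 13.04 on SetD8 arrays 1, 2 and 3, against 11.83, 11.93 and 11.70 on control arrays 1, 2 and 3. All SetD8 arrays were higher, by 1.37 ± 0.15 (SE) or 2.58-fold, with an adjusted p of 0.0265. Blocking by slide gave Cdkn1a an adjusted p of 0.101, and leaving out control array 1 or any 1 of the SetD8 arrays gave 0.163 to 0.229. With the replicate number as a block, the adjusted p of Cdkn1a was 0.307. Its percentile-scale difference was 1.23 ± 0.44 (SE) with an adjusted p of 0.917. Cdkn2c, which encodes the Cdk4 and Cdk6 inhibitor p18, gave 1.01 ± 0.14 (SE) with an adjusted p of 0.0504. With the test kept to probes well above background on all arrays, its adjusted p was 0.0187. Blocking by slide gave Cdkn2c 0.152, blocking by replicate number gave 0.356, and leaving out 1 array gave 0.0636 to 0.333. On the percentile scale Cdkn2c gave 0.88 ± 0.39 (SE) with an adjusted p of 0.917. The median over the list was 0.13, against 0.01 for all probes, and 0.59 against 0.10 on the percentile scale. Only 4 of the 6 were well above background on all arrays, and their median was 0.51, and 0.37 on the percentile scale.

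No gene of the other 5 lists passed the test on either scale, and the values that follow are on the quantile scale, where 48.3% of all probes had a negative and 51.7% a positive difference. All probes include dim ones, whereas nearly all measured genes of these lists were well above background on all arrays. The shares over probes that bright were not determined. Among pocket proteins and E2F factors, 12 of 13 were measured, with 8 negative and 4 positive differences and a median of −0.24. Rb1, the retinoblastoma protein gene, gave 0.58 ± 0.13 (SE, adjusted p = 0.150) and E2f8, a repressor of E2F targets, gave −0.52 ± 0.13 (SE, adjusted p = 0.194). Of the other cell cycle cyclins and kinases 10 of 12 were measured, 9 negative and 1 positive, with a median of −0.23. Cks1b, a subunit bound to cyclin-dependent kinases, gave −0.42 ± 0.14 (SE, adjusted p = 0.337), and Ccnb2, a mitotic cyclin, gave −0.35 ± 0.12 (SE, adjusted p = 0.355).

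All 4 of the remaining CDK phosphatases and inhibitory kinases were measured, 3 negative and 1 positive, with a median of −0.13. Cdc25c, which activates the mitotic kinase, gave −0.48 ± 0.15 (SE, adjusted p = 0.296), and Cdc25b, of the same family, gave 0.20 ± 0.17 (SE, adjusted p = 0.805). The ubiquitin ligase parts that act on G1 cyclins, their inhibitors or Cdc25a were all measured, 9 negative and 2 positive of 11, with a median of −0.21. Fbxo4, a substrate receptor described for cyclin D1, gave 0.61 ± 0.15 (SE, adjusted p = 0.193), and Fbxw11, a receptor of the family that marks Cdc25a for degradation, gave −0.41 ± 0.14 (SE, adjusted p = 0.334). Of the factors and kinases acting on D cyclin or Cdc25a genes, 11 of 12 were measured, 5 negative and 6 positive, with a median of 0.09. Stat5a, which relays erythropoietin signals, gave 0.50 ± 0.12 (SE, adjusted p = 0.193), and Gsk3b, a kinase that marks cyclins D and E for degradation, gave 0.31 ± 0.12 (SE, adjusted p = 0.450). The median over all probes was 0.01, and −0.03 over probes well above background on all arrays.

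**Figure D4:**
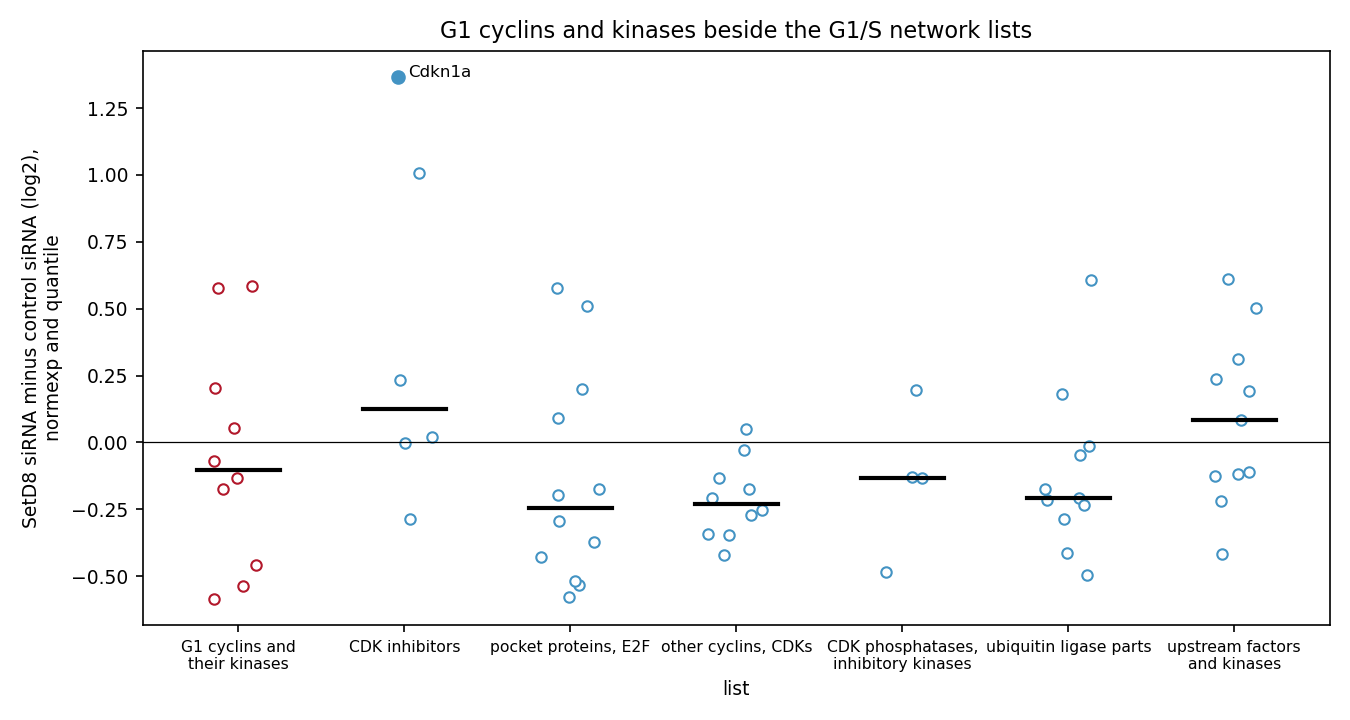
SetD8 siRNA minus control siRNA (log2, on the quantile scale) for the 10 probes of the G1 cyclins and kinases and for the 6 network lists, 1 point per probe or gene, with medians as horizontal bars. The filled point is the gene with an adjusted p under 0.05, Cdkn1a at 1.37, and the G1 cyclin and kinase probes lie between −0.58 and 0.58.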

How the data were processed

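RNA samples were read on 6 Agilent arrays in 1 colour, 3 per group, grouped by sample title. Intensity per spot, on a linear scale, comes from the authors' deposited scanner output, made with Feature Extraction 10.7.3.1 on mm9, per the file headers. The deposited series matrix holds the same intensity, equal within 0.006 for 100% of values, and was not used further. The submitters' processing notes name limma; how the authors scaled the arrays was not given in the sources used here.

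Control spots and 139 to 176 flagged outlier spots per array were left out, and spots of a probe averaged on the log2 scale. A probe was kept where 1 group or both had it well above background on all 3 arrays (30987 probes). The log2 processed signal minus each array's 75th percentile was tested with limma 3.58.1 (two-sided moderated test, R 4.3.3) and adjusted by Benjamini-Hochberg over all kept probes. Normexp (offset 50) on the mean signal and median local background, then quantile normalization, is the alternative given beside it (quantile scale). Exact permutation tests used scipy 1.17.1. The number of arrays limits the precision. The test was also run on simulated data with known changes. These were larger than any difference of a member probe on either scale, so the simulation does not bear on differences of that size.

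Members and lists were chosen with earlier results of these data known. Named genes were all members, Setd8, up to 2 genes per network list with the smallest unadjusted p after normexp and quantile normalization and any that passed, and the 3 genes most correlated with the member probe of largest absolute t. Alternatives tried were 5 other scalings, 2 other filters, 1 probe per gene, trend and robust moderation, replicate or slide as a block, and leaving out each array. Markers of other lineages, as summed processed signal, spanned 3272 to 4016 with SetD8 siRNA and 3613 to 4377 with control siRNA for granulocytes and macrophages (4 of 6 measured), 1065 to 1308 and 632 to 1760 for lymphoid cells (3 of 4), 197 to 1028 and 59.5 to 490 for stroma and endothelium (3 of 5), and 7343 to 22735 and 8253 to 15557 for megakaryocytes (4 of 4). These sums also took in listed genes that were not measured, and they were not scaled for the brightness of each array. The part of these markers in the results was not tested.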

Additional observations from a re-analysis of the deposited data

How the results depend on the processing

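Over 26 alternatives, 0 probes of the G1 cyclins and kinases were called in each, with a lowest adjusted p of 0.0587 (Ccnd3 probe 2, normexp and quantile normalization on probes well above background on all arrays). Ccne1 probe 2 and Cdc25a were negative under all 26 alternatives run, and Ccne1 probe 1 under its 25. The count over all probes moved with the processing: 0 on the percentile scale, 31 with normexp and the 75th percentile, 98 with normexp and quantile normalization, 150 on probes above background on all arrays (356 with normexp and quantile normalization), 4 with trend and robust moderation and 170 with slide as a block. Leaving out each array gave 0 to 57 (57 without control array 2), and 0 to 101 on the quantile scale (88 without control array 2, 101 without control array 3, 0 without any of the other 4). The cause was not tested. In the percentile-scale fit that gave 150, all 10 probes of the G1 cyclins and kinases had the same SE, 0.39. With slide as a block on that scale their SE was 0.463 to 0.465. These fits thus used nearly 1 common variance in place of each probe's own spread. CDK inhibitors called numbered 0 on the percentile scale, 1 on the quantile scale (0 to 1 with an array left out) and 2 on the quantile scale with probes above background on all arrays.

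Some differences turned sign. Scaling by the median gave Ccnd2 −0.39 and Ccnd3 −0.19 and −0.22, and put the median of all probes at −0.41. Cdk4 probe 2 turned positive with normexp and quantile normalization (0.05, also with its filter or replicate block, and 0.02 with slide as a block) and with quantile normalization alone (0.0087). Slide as a block gave the Cdk4 probes 0.17, 0.06 and 0.11. With an array left out on the percentile scale, the Cdk4 probes 1, 2 and 3 ranged over −0.66 to 0.29, −0.51 to 0.18 and −0.68 to 0.22. On the quantile scale these ranges were −0.25 to 0.05, −0.12 to 0.28 and −0.21 to 0.07. They include 0.0023 for probe 1 and 0.10 for probe 2 without control array 2, and 0.09 for probe 2 without control array 1. On the percentile scale the ranges were −0.68 to 0.0097 for Cdk2 and −0.30 to 0.48 for Ccnd2. The Cdk2 to Cdk4 ratio ranged over −0.39 to 0.18 on the processed signal. On the quantile scale neither gene turned sign, with −0.39 to −0.02 for Cdk2 and 0.12 to 0.29 for Ccnd2. Signal over background limits Ccnd1, Ccne2 and Cdk6, which passed the filter in neither group, so differences below background could not be seen.

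On the percentile scale, deviations of same-numbered arrays from their group means had r = 0.23, −0.28 and −0.42 for numbers 1, 2 and 3. Values centred within groups of 3 cannot decide whether the numbers pair the arrays, and the labels do not say. With the replicate number as a block, 0 probes were called on the percentile scale, and 0 on the quantile scale, against 98 without it. With slide as a block on the quantile scale, 0 were called.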
